A study of Mus musculus with 6 samples.

Results

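Neurotensin GABA neurons of the mouse preoptic region were taken as single cells that carried GABA neuron transcripts together with Nts, the gene of the neurotensin precursor, and little or no Gal, the galanin gene. A barcode counted as a cell with at least 500 genes and at most 20% mitochondrial UMIs (unique molecular identifiers, the tags that let each captured mRNA be counted once). It was a GABA neuron with at least 4 UMIs of the synaptic genes Snap25 and Syt1, at least 3 of Gad1, Gad2 and Slc32a1 (GABA synthesis and vesicle loading), 0 of the glutamate transporter Slc17a6, and at most 1 of the glial and vascular genes Mog, Cx3cr1 and Cldn5. Of these, cells with at least 5 Nts UMIs and at most 4 Gal UMIs were the Nts GABA neurons. There were 896 of them among 12580 GABA neurons (7.12%) and among 30824 cells that passed the filters (2.91%). The comparison cells were the other 11684 GABA neurons, which include 195 cells with at least 5 UMIs of both Nts and Gal.

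The cells came from the preoptic region of the hypothalamus of female and male mice, 60 to 70 days old, that had lived singly for 3 days. No strain, genotype or transgene is given in the labels. Each of the 6 libraries (3 female, 3 male) was made with the 10x Chromium system from a pool of 3 mice of 1 sex, after protease dissociation of fresh tissue and a sort that enriched living cells. An SD or a p-value below is taken over pools, not over single animals, and values per library are given in the order female 1, female 2, male 1, male 2, male 3.

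Neurotensin is a short secreted peptide, cut in dense-core granules from a precursor that also yields neuromedin N. It acts through the G protein-coupled receptors Ntsr1 and Ntsr2 and binds the sorting receptor Sort1. In the hypothalamus and preoptic region neurotensin is known for lowering body temperature and for effects on feeding, arousal and reproduction, and many neurons that make it also release GABA.

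Female library 3 stood apart from the other libraries. It held 451 barcodes and 1278429 UMIs against up to 81162330 UMIs in female library 2, and 0 of its 65 GABA neurons met the Nts rule, with an exact 95% interval of 0 to 5.52% (3 counts would be 4.62%). It therefore adds no member, and all gene tests use 2 female and 3 male libraries. Barcode sequences seen in at least 2 libraries numbered 479 (963 barcodes), and 34 of the Nts GABA neurons carried one of them. The members had more UMIs per cell than the other GABA neurons (median 9571 against 7159) and more genes (3623 against 3083). Their median share of mitochondrial UMIs was 3.49% against 3.79%.

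The Nts gene (ENSMUSG00000019890) lies on the minus strand at chr10:102481756-102490486 in the GENCODE M21 annotation of GRCm38. The 250 bases before the RefSeq start of Nts, Cartpt and Sst (GRCm38.p6) are shown because Cartpt was higher and Sst lower in the Nts GABA neurons, and because several genes of the early response to activity were also higher there. Capitals mark matches to 4 motifs searched on both strands: the cAMP response element core TGACG, the full element TGACGTCA (which contains the core), the variant TGACATCA with 1 changed base, and the AP-1 site TGAGTCA. The windows are chr10:102490419-102490668 (Nts), chr13:99900684-99900933 (Cartpt) and chr16:23890845-23891094 (Sst), all on the minus strand. The GENCODE gene models of Nts and Cartpt reach into their windows. That of Cartpt (chr13:99898489-99901091) spans its whole window, with the full element.
Nts: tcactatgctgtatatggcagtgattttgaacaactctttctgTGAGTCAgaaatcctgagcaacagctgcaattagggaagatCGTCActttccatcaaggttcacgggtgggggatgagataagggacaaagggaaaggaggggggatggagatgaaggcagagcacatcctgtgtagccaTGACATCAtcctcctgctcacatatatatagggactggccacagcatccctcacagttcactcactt
Cartpt: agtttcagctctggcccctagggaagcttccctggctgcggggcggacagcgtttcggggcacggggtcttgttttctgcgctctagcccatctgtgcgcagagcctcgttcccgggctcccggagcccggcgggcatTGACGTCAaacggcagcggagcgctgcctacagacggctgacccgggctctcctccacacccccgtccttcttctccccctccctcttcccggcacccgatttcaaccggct
Sst: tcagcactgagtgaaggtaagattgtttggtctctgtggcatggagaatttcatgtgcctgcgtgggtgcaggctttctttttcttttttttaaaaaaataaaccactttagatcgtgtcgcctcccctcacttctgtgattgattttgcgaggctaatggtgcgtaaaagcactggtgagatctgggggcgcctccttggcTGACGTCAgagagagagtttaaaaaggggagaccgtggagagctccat
The Nts window holds TGAGTCA at -207 to -201, the core in reverse (CGTCA) at -166 to -162 and TGACATCA at -67 to -60. The full element TGACGTCA is at -112 to -105 in the Cartpt window and at -48 to -41 in that of Sst. Among 32851 RefSeq windows of this length, 17.8% hold the core, 1.55% the full element, 2.93% the variant and 4.46% the AP-1 site. Cartpt, higher in the members, and Sst, lower in them, both hold the full element. Of the other windows searched, that of Vip (lower) holds the core alone, at -79 to -75, and those of Avp (lower) and Slc17a8 (higher) hold none of the 4. A match of letters is a description, not a binding site.

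Nts itself was used for the choice, so its levels are a description. The Nts GABA neurons held a median of 12 Nts UMIs per cell (quartiles 7 and 24, highest 277), and 68.0% of all Nts UMIs of GABA neurons. Summed over members, Nts stood at 2481, 2054, 1965, 1905 and 2741 CPM (the UMIs of a gene in every 1000000 UMIs of the same cells). The other GABA neurons held 102, 113, 96.3, 64.0 and 90.3 CPM. At least 1 Nts UMI was seen in 22.1% of the other GABA neurons, in 16.6% of glutamate neurons, in 10.6% of microglia and in 9.12% of oligodendrocytes (median 4872 UMIs), which should not make it. At 5 UMIs or more that background fell to 5 of 6767 oligodendrocytes and 0 of 432 microglia.

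Among the other genes of the rule, Gad1 was at 489, 467, 522, 479 and 506 CPM in the members and 624, 585, 599, 645 and 711 CPM in the other GABA neurons. Gad2 averaged 859 ± 72.9 against 882 ± 88.1 CPM and Slc32a1 371 ± 44.4 against 389 ± 43.1 CPM (SD, n = 5 libraries). Gal, which the rule limits, was at 24.5 to 49.3 CPM against 194 to 387 CPM. The rule used all these genes, so the values describe the cells and test nothing.

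Cells just below and just above the Nts threshold had similar levels of several peptides. Of GABA neurons with at most 4 Gal UMIs, the 315 with 3 to 4 Nts UMIs and the 200 with 5 to 6 had 477 and 569 CPM of Cartpt, 1715 and 1443 of Penk, 82.3 and 101 of Crh, and 74.8 and 67.9 of Sst. The 8705 cells with no Nts UMI had 184 CPM of Cartpt, 671 of Penk and 635 of Sst. Within the members Cartpt did not rise step by step with Nts. It was at 689 CPM in cells of 5 to 9 Nts UMIs, 486 at 10 to 19, 416 at 20 to 49 and 1333 in the 77 cells of 50 or more. Tac1 was at 809 CPM in cells of 5 to 9 Nts UMIs and at 79.9 CPM in cells of 50 or more.

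The share of Nts GABA neurons among GABA neurons was 7.72% (161 of 2086, exact 95% interval 6.61 to 8.95) in female library 1 and 7.70% (322 of 4182, 6.91 to 8.55) in female library 2. In the males it was 6.61% (201 of 3041, 5.75 to 7.55), 6.93% (181 of 2610, 5.99 to 7.98) and 5.20% (31 of 596, 3.56 to 7.30). Female libraries 1 and 2 lay above all 3 male libraries, and female library 3, with no member, lay below them. Over all libraries the female minus male difference was -1.11 percentage points (5.14 ± 4.45 against 6.25 ± 0.921%, SD, n = 3 and 3, exact two-sided permutation p = 1). Without female library 3 it was 1.46 points (7.71 ± 0.0131% against 6.25%, exact permutation p = 0.2, the smallest that 2 against 3 allows). The Nts level over all GABA neurons, which needs no threshold, was 314, 295 and 41.8 CPM in the females and 256, 226 and 282 CPM in the males. Its difference was -0.68 on the log2(CPM + 1) scale (exact permutation p = 1), and 0.26 without female library 3 (p = 0.2, exact). The 3 against 3 design cannot go below 0.1.

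**Figure D1:**
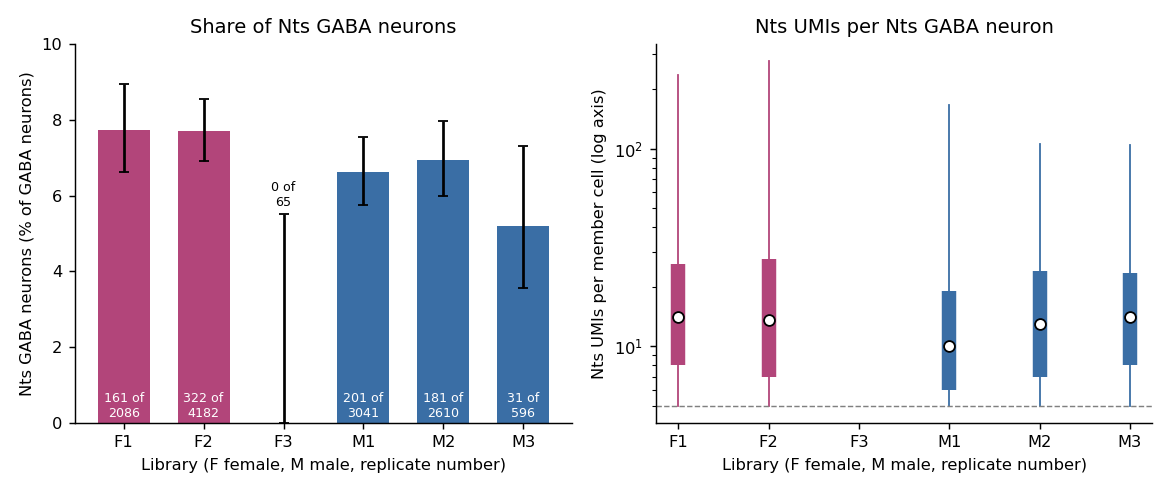
Left, the share of Nts GABA neurons among GABA neurons in each of the 6 libraries, as bars with exact 95% binomial intervals and the cell counts; right, Nts UMIs per member on a log axis (circle, median; thick bar, quartiles; thin line, range; dashed line, the rule's 5 UMIs). The 5 libraries with members lie between 5.20% and 7.72%, and female library 3 has 0 of 65.

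To ask how these neurons differ from the other GABA neurons of the same pools, UMIs were summed per library and class and compared gene by gene with edgeR's quasi-likelihood test, with the library as a block. Genes with an adjusted p (Benjamini-Hochberg) under 0.05 are called. The 11 genes of the rule were not tested. Of 11739 genes, 1838 (15.7%) were called, 1087 (9.26%) higher and 751 (6.4%) lower in the Nts GABA neurons, and 579 (4.93%) had no overlap between the classes' libraries. The counts given below for gene lists are to be read against these shares. The median log2 fold change over all genes was -0.00. Without TMM scaling 749 genes were higher and 1051 lower. Without the library block 362 genes were called, and 22 of the 73 called genes named in the text lost their call. Without the cells that carried striatal genes, described below, 1127 genes were called. Leaving out female library 2 gave 1217 calls and leaving out male library 1 gave 1222.

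Summed over all members, several other peptide genes were higher in the Nts GABA neurons, above all Cartpt, Penk and Crh. Avp, Vip, Sst and Npy were lower. Of 39 listed neuropeptide genes other than Nts and Gal, 24 were tested, 6 were higher and 11 lower, with a median log2 fold change of -0.25. Cartpt encodes the precursor of the CART peptides, which act on feeding and reward. It stood at 750, 534, 497, 879 and 429 CPM in the members and 230, 224, 208, 218 and 186 CPM in the others. Every member library lay above every library of the others, and the log2 fold change was 1.58 ± 0.07 (SE, adjusted p = 1.81e-15). The level was uneven among the members. In subgroups 1 to 9, described below, Cartpt was at 1490, 972, 39.1, 1259, 198, 124, 229, 105 and 883 CPM. Penk, the enkephalin precursor gene, was at 1583, 1040, 1963, 1354 and 2418 CPM against 754, 545, 917, 860 and 902 CPM. It was higher in all 5 libraries without overlap (1.04 ± 0.05, adjusted p = 9.65e-15). Within the members Penk was at 7382 CPM in subgroup 4 (96 cells) and at 722 CPM in all other members, within the range of the other GABA neurons. Crh encodes corticotropin-releasing hormone, the stress peptide. It was at 90.0, 95, 64.1, 119 and 221 CPM against 40.2, 35.6, 29.4, 47.1 and 31.9 CPM (1.42 ± 0.10, adjusted p = 2.43e-11). At least 1 Crh UMI was found in 17.9% of the members, 5.85% of the other GABA neurons and 1.15% of oligodendrocytes.

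Prok2 encodes prokineticin 2, a signal of the circadian clock. It was at 47.8, 61.4, 72.0, 74.1 and 57.2 CPM against 17.3, 31.3, 28.0, 24.6 and 46.9 CPM (1.28 ± 0.10, adjusted p = 2.51e-10), again without overlap. Pdyn, the dynorphin precursor gene, and Tac1, the substance P precursor gene, were picked here after their values were seen. Pdyn was at 59.1, 53.4, 89.0, 113 and 24.5 CPM against 42.1, 29.2, 60.2, 42.3 and 58.4 CPM (0.84 ± 0.12, adjusted p = 5.64e-06), with male library 3 going the other way, and DESeq2 did not call it (0.58, adjusted p = 0.42). Tac1 was at 348, 420, 623, 537 and 351 CPM against 388, 283, 496, 395 and 606 CPM. The classes overlapped, and the Tac1 call (0.29 ± 0.08, adjusted p = 0.0109) was lost without female library 2 (0.18, adjusted p = 0.17) and without male library 1 (0.26, adjusted p = 0.10). Among members with at least 10 Nts UMIs Tac1 was lower than in the others (-0.36, adjusted p = 0.0041).

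The peptides that were lower include those that mark other well-known GABA neurons. Avp, the vasopressin gene, was at 42.8, 184, 113, 5.13 and 28.6 CPM against 898, 1381, 333, 362 and 605 CPM (-3.04 ± 0.19, adjusted p = 7.17e-13). A single cell held 42.8% of the members' Avp UMIs. Vip, the gene of vasoactive intestinal peptide, was at 20.8, 32.5, 15.9, 6.84 and 8.17 CPM against 146, 196, 122, 39.5 and 175 CPM (-2.70 ± 0.09, adjusted p = 1.80e-18). Sst, the somatostatin gene, was at 165, 98.6, 89.6, 87.2 and 8.17 CPM against 448, 639, 383, 563 and 288 CPM (-2.26 ± 0.11, adjusted p = 7.81e-15). Npy, the neuropeptide Y gene, was at 74.2, 34.1, 140, 23.4 and 8.17 CPM against 164, 259, 180, 222 and 234 CPM (-1.77 ± 0.22, adjusted p = 7.85e-07). In none of these 4 genes did the libraries of the classes overlap. The levels of the others are those of a mixture, since the other GABA neurons include cells chosen by no peptide.

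**Figure D2:**
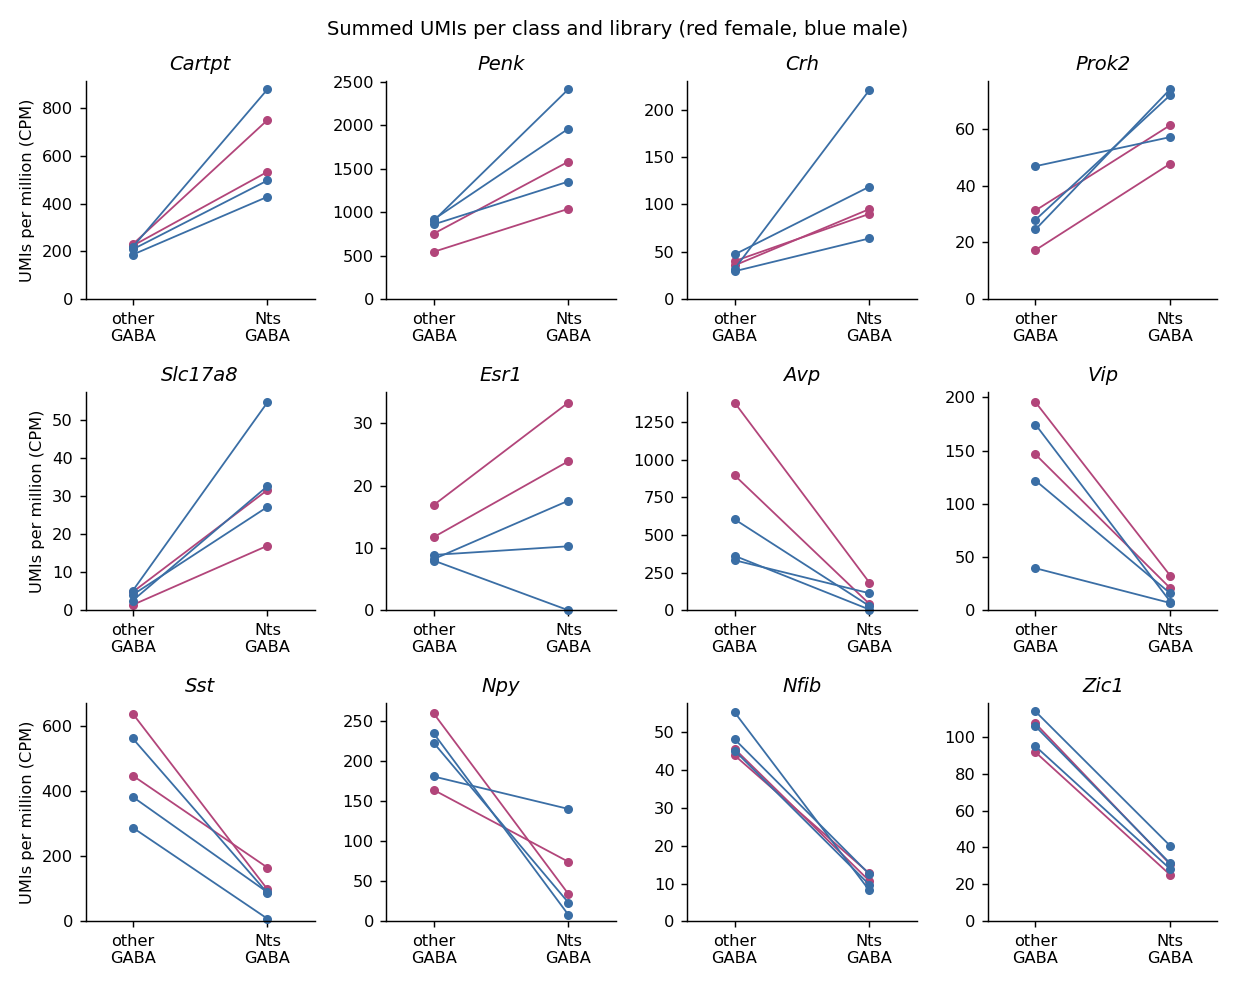
Levels of 12 genes in the other GABA neurons and the Nts GABA neurons (CPM, linear axes from 0); each line joins the classes of 1 library (red female, blue male). Cartpt, Penk, Crh, Prok2 and Slc17a8 rise in all 5 libraries and Avp, Vip, Sst, Npy, Nfib and Zic1 fall in all 5, whereas Esr1 goes to 0 in male library 3.

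Among the genes that receive peptide signals, receptors for neuropeptide Y were higher and those for clock peptides lower. Of 43 listed peptide receptor genes 28 were tested, 6 were higher and 6 lower, with a median of 0.08. Npy1r was at 23.3, 16.8, 17, 20.5 and 36.8 CPM against 9.27, 10.4, 10.4, 13.7 and 10.5 CPM, with no overlap (0.89 ± 0.15, adjusted p = 7.33e-05). Npy2r was at 37.7, 55.6, 21.5, 26.8 and 61.3 CPM against 19.1, 27.9, 18.9, 24.6 and 17.9 CPM (0.78 ± 0.12, adjusted p = 4.27e-05). Both genes were higher in 5 of 5 libraries, Npy2r with overlapping levels. Prokr2, the prokineticin receptor gene, was at 0, 1.38, 1.70, 1.71 and 0 CPM against 9.82, 10.2, 14.3, 6.89 and 14.7 CPM (-3.04 ± 0.32, adjusted p = 4.54e-08). Vipr2, a receptor gene for vasoactive intestinal peptide, was at 0, 0.551, 1.13, 0 and 4.08 CPM against 5.34, 5.19, 6.72, 3.75 and 7.66 CPM (-3.18 ± 0.46, adjusted p = 8.28e-06). The members therefore had more UMIs of the ligand gene Prok2 and fewer of its receptor gene. Hcrtr1, the orexin receptor gene, was named after its values were seen: 5.03, 3.85, 10.8, 9.12 and 28.6 CPM against 2.27, 2.14, 3.39, 3.47 and 2.55 CPM (1.48 ± 0.27, adjusted p = 0.000195).

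Of 9 genes that receive, sort, close or break down neurotensin 8 were tested, 0 were higher and 1 was lower, with a median of -0.14. That is 12.5% called, near the 15.7% over all genes. The lower gene was Ntsr2, which is also an astrocyte gene, at 5.03, 6.33, 8.50, 5.70 and 12.3 CPM against 6.45, 10.4, 14.8, 14.5 and 6.38 CPM (-0.72 ± 0.20, adjusted p = 0.0113). It was seen in 5.47% of members, 6.18% of the others and 8.02% of oligodendrocytes, so its level is within the background. The Ntsr2 call was lost without female library 2 (-0.74, adjusted p = 0.058), male library 1 (-0.71, adjusted p = 0.059) or male library 2 (-0.57, adjusted p = 0.093). Ntsr1 was too low to be tested, with 0.567 to 4.08 CPM in the members and 1.60 to 3.07 CPM in the others. The sorting receptor Sort1 (-0.06 ± 0.11, adjusted p = 0.783) was not called. Neither were the peptidase genes Thop1 (0.15 ± 0.10, adjusted p = 0.365), Prep (-0.41 ± 0.29, adjusted p = 0.384), Nln (-0.21 ± 0.16, adjusted p = 0.444), Ace (-0.32 ± 0.26, adjusted p = 0.465) and Mme (-0.05 ± 0.21, adjusted p = 0.94). Qpct, whose enzyme closes the N-terminus of neurotensin, had -0.07 ± 0.06 (adjusted p = 0.487).

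Slc17a8 had the largest log2 rise among the called genes with at least 20 CPM in the higher class and 1 direction in every library. It encodes the vesicular glutamate transporter VGLUT3, which is known to occur in neurons that also use another transmitter. Its level was 17, 31.7, 27.2, 54.7 and 32.7 CPM in the members and 1.41, 4.79, 4.07, 5.13 and 2.55 CPM in the others (3.09 ± 0.16, adjusted p = 1.76e-14). All 5 member libraries lay above all those of the others. The rise came from few cells: 76 members (8.48%) had an Slc17a8 UMI, against 1.46% of the other GABA neurons and 0.148% of oligodendrocytes. With every cell thinned to 3000 UMIs the shares were 5.28% and 0.829% (6 members and 953 others were too shallow). Just below the Nts threshold the level was 28.9 CPM (3 to 4 UMIs) and just above it 12.1 CPM (5 to 6 UMIs). Fam159b rose as well, at 34.6, 31.7, 14.2, 37.1 and 20.4 CPM against 4.5 to 12.8 CPM (1.60 ± 0.15, adjusted p = 6.78e-09). The summed level of 12 glutamate neuron markers was 26.4 to 59.9 CPM in the members and 10.2 to 20.9 CPM in the others. Slc17a8 is itself on that list, and alone took up 17 to 54.7 of these CPM in the members and 1.41 to 5.13 in the others. Of the 3 listed markers that could be tested 1, Slc17a8, was higher and 1 was lower, with a median of -0.79. Slc17a7, Sim1 and Neurod6 were at 0 UMIs in the members.

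Transcription factor genes that pattern the forebrain were mostly lower in the Nts GABA neurons, among them the Zic and nuclear factor I families. Of 56 listed genes 49 were tested, 8 were higher and 29 lower, with a median of -0.46, and 22 had no overlap. Zic1, a zinc finger gene, was at 25.2, 30.8, 28.3, 31.4 and 40.8 CPM against 91.5, 107, 94.8, 106 and 114 CPM (-1.73 ± 0.08, adjusted p = 1.05e-15). Nfib was at 10.7, 12.7, 12.5, 9.69 and 8.17 CPM against 45.6, 43.8, 48.1, 45.1 and 55.2 CPM (-1.94 ± 0.12, adjusted p = 5.54e-13). Both genes kept a narrow range in either class. Their relatives Zic4 (-1.80 ± 0.18, adjusted p = 1.49e-08) and Nfix (-2.09 ± 0.13, adjusted p = 1.6e-12) fell in 5 of 5 libraries too. Tcf4, a helix-loop-helix factor gene, was at 26.4 to 54.2 CPM against 89.9 to 117 CPM (-1.36 ± 0.08, adjusted p = 2.09e-13). Nrip3 was at 13.2 to 24.5 CPM against 49.8 to 61.4 CPM (-1.39 ± 0.11, adjusted p = 1.48e-10).

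Meis2, a homeobox gene of the embryonic striatum and other forebrain GABA neurons, was the listed factor with the smallest p among those that rose. It was at 437, 291, 415, 461 and 347 CPM against 253, 169, 288, 248 and 252 CPM (0.77 ± 0.05, adjusted p = 5.54e-13), with no overlap. Lmo4, a LIM-only cofactor gene outside the list, was at 335, 342, 379, 519 and 408 CPM against 170, 142, 175, 180 and 217 CPM (1.25 ± 0.06, adjusted p = 1.35e-15). At least 1 Lmo4 UMI was found in 71.0% of members and 45.6% of the others. For Meis2 the shares were 60.3% and 34.95%. Both genes varied among the subgroups of members described below, Lmo4 from 17.3 to 850 CPM and Meis2 from 13.0 to 901 CPM.

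Genes of suprachiasmatic clock neurons, the circadian pacemaker that lies next to the preoptic area, were low in the members. Of 12 listed genes all 12 were tested, 9 were lower and 1, Prok2, was higher, with a median of -1.29. The summed level was 172 to 468 CPM in the members and 654 to 1998 CPM in the others, so no libraries overlapped. Besides Avp and Vip, Six6, a homeobox gene needed for that nucleus, was at 0.629, 9.08, 4.54, 3.42 and 0 CPM against 26.0, 30.1, 19.9, 17.6 and 25.8 CPM (-2.20 ± 0.21, adjusted p = 5.61e-09). The nuclear receptor gene Rorb was at 23.3, 52.0, 29.5, 17.7 and 0 CPM against 61.1 to 113 CPM (-1.36 ± 0.11, adjusted p = 2.9e-10).

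Many genes of the early response to neuronal activity were higher in the Nts GABA neurons. Tissue dissociation can induce the same genes. Of 32 listed genes 31 were tested, 16 were higher and 4 lower, with a median of 0.25. Egr4, a zinc finger factor gene, was at 355, 200, 297, 376 and 343 CPM against 121, 74.4, 121, 75.6 and 166 CPM (1.63 ± 0.09, adjusted p = 8.72e-14). Rgs2, a brake on G protein signals, was at 346, 263, 288, 352 and 274 CPM against 163, 155, 161, 179 and 120 CPM (0.96 ± 0.05, adjusted p = 1.25e-14). Neither gene overlapped between classes. Arc, a synaptic plasticity gene, was at 121, 80.1, 103, 131 and 376 CPM against 64.8, 47.9, 51.1, 42.3 and 104 CPM (1.17 ± 0.10, adjusted p = 6.43e-10). Dusp6, whose product switches off ERK kinases, had 1.21 ± 0.10 (adjusted p = 5.27e-10) and the nuclear receptor gene Nr4a3 1.40 ± 0.17 (adjusted p = 4.38e-07). Arl4d, outside the list, was at 27.5 to 57.2 CPM against 12.6 to 18.1 CPM (1.36 ± 0.11, adjusted p = 4.38e-10).

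The early response genes did not move as 1 block, as members of the list picked after their values were seen show. Fos, the most used activity marker, was at 597, 617, 326, 473 and 384 CPM against 597, 670, 478, 375 and 531 CPM and was not called (-0.06 ± 0.07, adjusted p = 0.609). Egr1 (0.70 ± 0.08, adjusted p = 2.32e-07) and Junb (0.71 ± 0.08, adjusted p = 3.87e-07) were higher in 4 of 5 libraries, and DESeq2 did not call Egr1 (0.57, adjusted p = 0.13). Ier2 was lower without overlap, at 3.15 to 8.17 CPM against 14.7 to 23.9 CPM (-1.83 ± 0.19, adjusted p = 2.2e-08).

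Striatal projection neuron genes moved with the early response genes. Of 14 listed genes all 14 were tested, 10 were higher and 0 lower, with a median of 0.40. Their summed level was 1790 to 3201 CPM in the members and 1167 to 2079 CPM in the others. Arpp21 was at 1192, 764, 1436, 1337 and 1037 CPM against 651, 451, 892, 673 and 654 CPM (0.85 ± 0.04, adjusted p = 1.35e-15). Ppp1r1b, the gene of the dopamine-regulated phosphatase inhibitor DARPP-32, was at 411, 301, 661, 417 and 511 CPM against 270, 164, 367, 276 and 390 CPM (0.76 ± 0.05, adjusted p = 1.09e-12). Each rose in 5 of 5 libraries with overlapping ranges. Rgs9 was also higher (0.65 ± 0.07, adjusted p = 1.66e-07). At least 3 UMIs of a small set of striatal genes that includes Ppp1r1b and Adora2a were present in 340 members (37.9%) and in 21.3% of the other GABA neurons.

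The classes were compared again without those cells. Of 30 early response genes tested 1 was then higher and 12 lower (median -0.32), with 645 genes higher and 482 lower of all 11181. The striatal genes, 1 higher and 1 lower of 12 (median -0.03), are no test here, since the cells left out were chosen by striatal genes. Of 23 other neuropeptide genes 4 were higher and 7 lower, against 6 and 11 of 24 in all cells. Egr4 stayed higher at 0.88 (adjusted p = 0.0001). Rgs2 (0.11, adjusted p = 0.37), Arc (0.024, adjusted p = 0.95), Dusp6 (0.25, adjusted p = 0.31), Nr4a3 (0.15, adjusted p = 0.83) and Rgs9 (0.27, adjusted p = 0.15) were no longer called. Egr1 (-0.30, adjusted p = 0.021) and Junb (-0.35, adjusted p = 0.011) were lower in the members that remained. Arl4d (-0.52, adjusted p = 0.33), Tac1 (-0.31, adjusted p = 0.19) and Ppp1r1b (-0.014, adjusted p = 0.99) turned negative without a call, and Pdyn had 0.30 (adjusted p = 0.39). Cartpt had 1.59, Penk 0.71, Crh 1.69, Slc17a8 3.37, Lmo4 1.79, Meis2 1.07, Sst -2.59 and Zic1 -1.57, each still called. In the same cells 24 of 49 patterning factor genes and 9 of 12 clock neuron genes were lower.

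**Figure D3:**
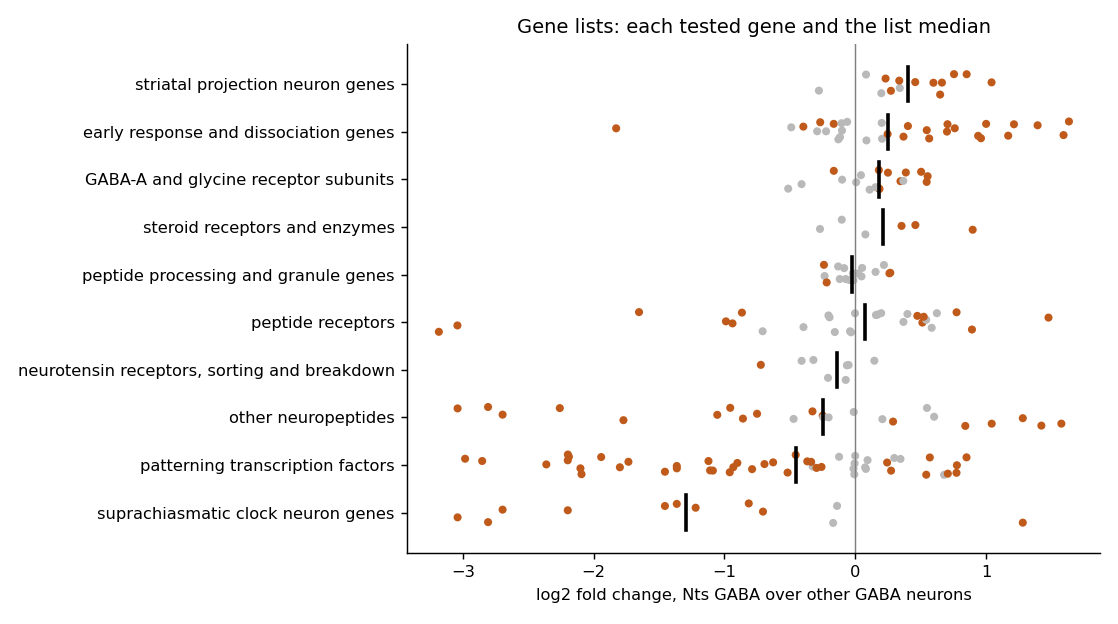
Log2 fold change of every tested gene of 10 lists, Nts GABA neurons over the other GABA neurons (orange, adjusted p under 0.05; grey, not called; black bar, list median). The striatal median is 0.40 and that of the early response genes 0.25, against -0.46 for patterning factors and -1.29 for clock neuron genes.

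Of 18 GABA-A and glycine receptor genes tested, which encode the channels of fast inhibition, 9 were higher and 1 lower, with a median of 0.18. DESeq2 called 6 higher and 0 lower, and without female library 2 edgeR called 5 higher and 1 lower of 17. Glra2, a glycine receptor subunit gene, was at 90.0, 101, 77.7, 94.1 and 93.9 CPM against 65.1, 61.1, 60.4, 73.1 and 73.4 CPM, with no overlap (0.55 ± 0.07, adjusted p = 5.52e-07). The GABA-A subunit genes Gabrq (0.50 ± 0.09, adjusted p = 0.00016), Gabra5 (0.39 ± 0.07, adjusted p = 0.000365) and Gabra4 (0.35 ± 0.07, adjusted p = 0.00043) were higher in 5 of 5 libraries. Gabra4 lost its call without the striatal-gene cells (-0.084, adjusted p = 0.79).

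Of 15 ionotropic glutamate receptor genes tested, 4 were higher and 2 lower (median 0.15). Grin2b, an NMDA receptor subunit gene, had 0.23 ± 0.04 (adjusted p = 0.000523) and Gria1, an AMPA receptor subunit gene, 0.23 ± 0.05 (adjusted p = 0.00103). Grin2b lost its call among members with at least 10 Nts UMIs (0.098, adjusted p = 0.27) and without the striatal-gene cells (0.18, adjusted p = 0.061). Grik3 (-0.59 ± 0.12, adjusted p = 0.00114) and Gria4 (-0.40 ± 0.09, adjusted p = 0.00149) were lower in 5 of 5 libraries. Of 21 receptor genes for monoamines and acetylcholine 4 were higher and 2 lower (28.6% called, against 15.7% over all genes). The lower ones were Adra1b, an adrenergic receptor gene, at 4.08 to 7.94 CPM against 13.0 to 18.2 CPM (-1.46 ± 0.19, adjusted p = 1.96e-06), and the serotonin receptor gene Htr3a (-2.56 ± 0.38, adjusted p = 1.2e-05). Adra2a (0.94 ± 0.20, adjusted p = 0.00106) and Chrm1 (0.54 ± 0.13, adjusted p = 0.00294) were higher.

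In sums over all members, sex steroid receptor genes were higher in the Nts GABA neurons. Of 6 steroid receptor and enzyme genes tested 3 were higher and 0 lower (median 0.22). Without the library block 0 of the 6 were called. Esr1, the estrogen receptor alpha gene, was at 23.9, 33.3, 17.6, 10.3 and 0 CPM against 11.7, 16.9, 8.20, 8.88 and 7.98 CPM (0.90 ± 0.16, adjusted p = 0.000113). It was higher in 4 of 5 libraries, and male library 3, with 31 members, had no Esr1 UMI in them. Outside subgroup 8, described below, the members' Esr1 level was 12.4, 13.8, 13.2, 10.3 and 0 CPM. Pgr, the progesterone receptor gene, was at 39.0, 41.0, 34.6, 35.3 and 12.3 CPM against 25, 26.0, 30.4, 30.8 and 25.5 CPM (0.46 ± 0.11, adjusted p = 0.00277), a call that was lost without female library 2 (0.33, adjusted p = 0.11). Nr3c1, the glucocorticoid receptor gene, was not called (-0.10 ± 0.07, adjusted p = 0.392).

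Calcium-binding proteins, often used to sort inhibitory neurons, split in both directions. Of 15 genes tested 6 were higher and 4 lower (median 0.05). Calb2, the calretinin gene, was at 323, 492, 401, 365 and 490 CPM against 277, 285, 282, 290 and 336 CPM (0.54 ± 0.05, adjusted p = 1.49e-08). Calb1, the calbindin gene, was at 238, 205, 274, 179 and 315 CPM against 375, 327, 327, 317 and 337 CPM (-0.53 ± 0.06, adjusted p = 2.26e-07). Calb2 was higher in 5 of 5 libraries and Calb1 lower in 5 of 5, the latter with no overlap. Hpca, the hippocalcin gene, had 0.60 ± 0.05 (adjusted p = 6.95e-10). Pvalb, the parvalbumin gene, was nearly absent from the members, at 0 to 2.27 CPM against 5.74 to 11.5 CPM (-2.53 ± 0.31, adjusted p = 5.61e-07).

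Signs of other cells were also measured in both classes. The summed oligodendrocyte markers were at 918 to 2038 CPM in the members and 1015 to 2080 CPM in the others, and the summed astrocyte markers at 129 to 183 against 160 to 244 CPM. Of 7 astrocyte genes tested 5 were lower, and of 10 oligodendrocyte genes 4 were lower. Without male library 2 these counts were 1 of 7 and 0 of 10, without male library 1 they were 1 of 6 and 1 of 10, and without female library 2 they were 3 of 6 and 2 of 10. Microglial markers summed to 34.8 to 162 against 59.7 to 138 CPM and endothelial and mural markers to 53.0 to 89.9 against 67.6 to 110 CPM. Scrublet marked 19 of the members as doublets (2.12%, against 1.72% of the others). The part of these signals in the differences above was not tested.

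The Nts GABA neurons were split into subgroups by their transcripts. Clustering them without the genes of the rule, early response genes, sex chromosome genes, genes called between the sexes, and mitochondrial, oligodendrocyte and hemoglobin genes gave 9 subgroups of 36 to 151 cells. A resolution of 0.6 also gave 9, and 1.0 gave 12. The clustering could use any variable gene outside those left out, and leading genes were picked by their levels in the same subgroups. The values therefore describe the subgroups and are no test. They are CPM in the subgroup and in all other members. Every subgroup had cells from both sexes.

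Subgroup 1 (151 cells, 16.9%) carried genes of striatal neurons of the direct pathway. Tac1 was at 2412 against 96.8 CPM, Pdyn at 319 against 25.3 CPM, the dopamine receptor gene Drd1 at 107 against 13.0 CPM and Foxp2 at 382 against 75.2 CPM. Its median of 8 Nts UMIs per cell was the lowest of the 9. Subgroup 4 (96 cells, 10.7%) carried some genes of the indirect pathway, with the adenosine receptor gene Adora2a at 352 against 11.1 CPM and Penk at 7382 against 722 CPM. The dopamine receptor gene Drd2 was nearly absent from subgroup 4, at 2.14 CPM in 2.08% of its cells, and was at 0 to 0.766 CPM elsewhere. In its 5 libraries Penk was at 6156, 7741, 8179, 7157 and 7817 CPM. Early response genes, which the clustering did not use, were also high in subgroup 4, with Egr4 at 1764 against 112 CPM, Arc at 596 against 53.3 CPM and Junb at 1841 against 240 CPM. Subgroup 9 (36 cells, 4.02%) had Arpp21 at 4861 against 980 CPM, and Cidea, Spink8 and the calcitonin receptor gene Calcr (125 against 12.9 CPM) led it.

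Subgroup 2 (148 cells, 16.5%) held the VGLUT3 signal. Slc17a8 was at 188 against 1.07 CPM, and 48.0% of its cells had an Slc17a8 UMI against 0.668% of the other members. In its 5 libraries the level was 168, 180, 212, 190 and 241 CPM. Fam159b (113 against 12.5 CPM), the collagen gene Col11a1 (97.2 against 15 CPM) and Lmo4 (850 against 289 CPM) were high in the same subgroup. Calb2 was at 912 against 319 CPM, but with a UMI in 54.7% of the cells of subgroup 2 and 52.5% of the other members. In subgroup 3 Calb2 was at 854 CPM, with a UMI in 88.1% of the cells. The median of subgroup 2 was 14.5 Nts UMIs. Subgroup 3 (135 cells, 15.1%) carried factors of the ventral forebrain: Gbx2 (72.8 against 0.651 CPM), Lhx6 (82.8 against 2.21 CPM), Lhx8 (113 against 12.2 CPM), Nkx2-1 (92.7 against 10.7 CPM) and Zeb2 (116 against 5.99 CPM). Crh was at 294 against 62.4 CPM there.

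The remaining subgroups were led by other genes. Subgroup 5 (91 cells) had Cbln2 at 115 against 14.7 CPM and Zic1 at 73.2 against 24.0 CPM, although Zic1 was low in the members as a whole. In subgroup 6 (87 cells) Npy was at 259 against 38.9 CPM and Sst at 381 against 75.7 CPM. An Npy UMI was seen in 35.6% of its cells and 13.6% of the other members, and an Sst UMI in 35.6% and 30.5%. The Sst level of subgroup 6 was uneven, at 959, 122, 387, 159 and 0 CPM in the 5 libraries. Its Ccl4, a chemokine gene of microglia, was at 278 against 42.6 CPM, and 7 of its cells were marked as doublets. Subgroup 7 (85 cells) had Pnoc, the nociceptin precursor gene, at 337 against 60.5 CPM and the prolactin receptor gene Prlr at 270 against 59.4 CPM. It had the highest median share of mitochondrial UMIs (5.73%), 5 doublets and no cell in male library 3.

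Subgroup 8 (67 cells, 7.48%) had the most neurotensin. Its median was 35 Nts UMIs per cell and its Nts level 3487 CPM, and its cells were also the deepest (median 14202 UMIs). Esr1 was at 118 against 12.3 CPM, with a UMI in 74.6% of its cells and 8.08% of the other members. The netrin-G1 gene Ntng1 (472 against 51.7 CPM) and the homeobox genes Hmx2 (87.6 against 6.45 CPM), Lhx5 (37.9 against 2.23 CPM) and Dlx1 (240 against 41.9 CPM) were also high. So was Brs3, an orphan bombesin receptor gene tied to body temperature (54.1 against 4.84 CPM), but not in subgroup 8 alone. Subgroup 9 had Brs3 at 50.8 CPM, with a UMI in 25% of its cells against 25.4% in subgroup 8. Subgroup 8 made up 10.6% and 12.4% of the members in the female libraries. In the male libraries it made up 4.48%, 0% and 3.23%, a difference that was not tested. Outside subgroup 8 the Esr1 level was 12.4, 13.8, 13.2, 10.3 and 0 CPM.

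**Figure D4:**
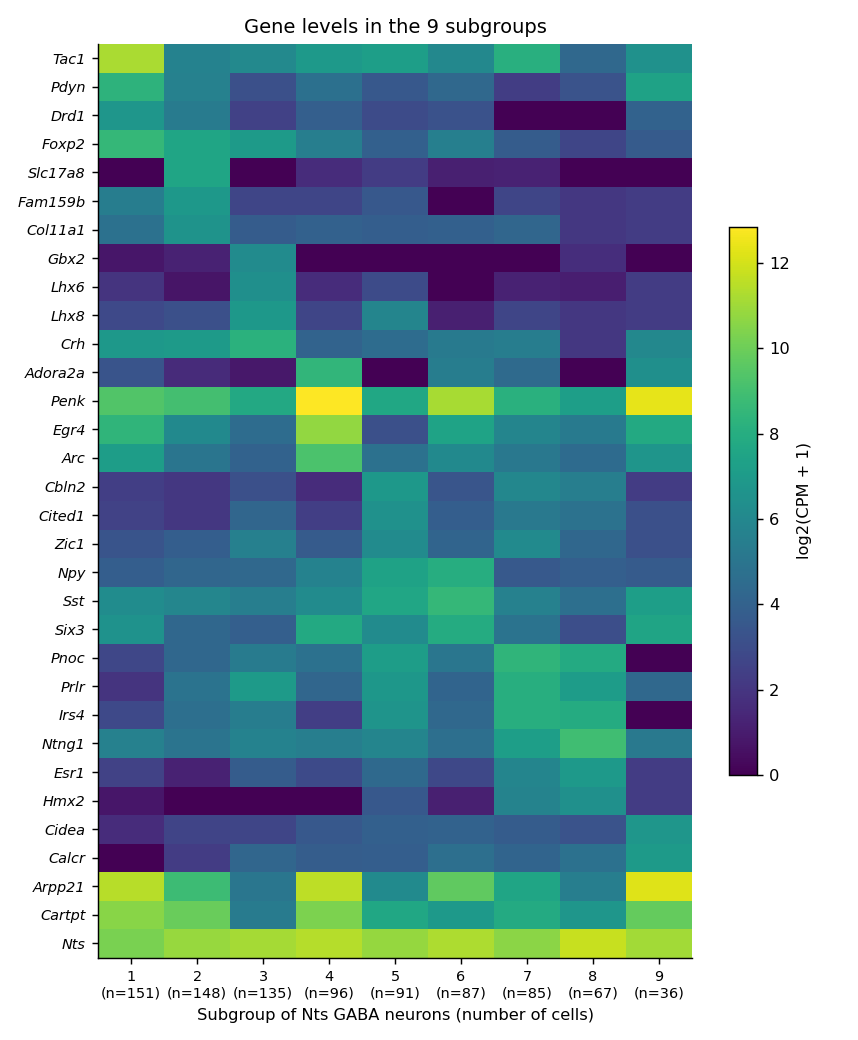
Levels of 32 genes in the 9 subgroups of Nts GABA neurons, as log2(CPM + 1) in colour, with the cells per subgroup under each column. Tac1 is bright in subgroup 1, Slc17a8 in subgroup 2, Gbx2 in subgroup 3, and Adora2a, Penk and Egr4 in subgroup 4, while Esr1 and Ntng1 peak in subgroup 8.

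Female and male Nts GABA neurons were compared with edgeR on the UMIs summed per library (2 female and 3 male). Of 10674 genes 8 (0.0749%) were called, 519 had an unadjusted p under 0.05, and 1990 (18.6%) had no overlap between the sexes. Xist, which silences an X chromosome, was at 818 and 647 CPM in the females and 0, 0.570 and 0 CPM in the males. The Y-linked genes Eif2s3y, Ddx3y, Kdm5d and Uty were at 0 UMIs in both female libraries and were called. The libraries with members thus matched their labelled sex, and female library 3, which has none, was not checked.

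The other 3 called genes were higher in females. Cd24a, a surface glycoprotein gene, was at 44.7 and 50.7 CPM in the females and 14.2, 18.8 and 20.4 CPM in the males (1.55 ± 0.21, adjusted p = 0.00373). Cox6a2, a respiratory chain subunit gene best known from muscle, was at 15.1 and 12.9 CPM against 1.13, 2.28 and 0 CPM (3.09 ± 0.49, adjusted p = 0.0242). Slc18a2, the vesicular monoamine transporter gene, was at 16.4 and 21.7 CPM against 3.4, 5.13 and 0 CPM (2.32 ± 0.39, adjusted p = 0.0343). The sexes did not overlap in any of the 3, as in 18.6% of all genes tested. None of the 3 was called by DESeq2, with adjusted p of 0.10, 0.32 and 0.43. Cd24a lost its call without male library 1 (1.37, adjusted p = 0.0897). Cox6a2 lost it without female library 2 (adjusted p = 0.063), male library 1 (0.14), male library 2 (0.10) or male library 3 (0.066), and Slc18a2 without the same libraries (adjusted p of 0.33, 0.20, 0.15 and 0.071).

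The Slc18a2 UMIs lay in few cells, 46 female and 12 male members. Subgroup 8, which was found without this gene, held 82.2 CPM of it against 5.46 CPM in the other members. Within subgroup 8 its level was 51.6 and 108 CPM in the female libraries and 0 CPM in male libraries 1 (9 cells) and 3 (1 cell). Outside subgroup 8 it was 10.9 and 4.62 CPM in the females and 3.61, 5.13 and 0 CPM in the males, so the sexes then overlapped. Cd24a still did not overlap outside subgroup 8, at 39.2 and 32.6 CPM against 10.2, 18.8 and 12.7 CPM. Within subgroup 8 the sexes did overlap in Cd24a. It was at 79.7 and 142 CPM in the females and at 77.6 and 236 CPM in male libraries 1 (9 cells) and 3 (1 cell). Esr1 was at 23.9 and 33.3 CPM against 17.6, 10.3 and 0 CPM and was not called between the sexes (1.23 ± 0.33, adjusted p = 0.614).

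Whether the sex difference in the Nts GABA neurons differed from that in the other GABA neurons of the same libraries was tested as a class by sex term. Of 12335 genes 3 (0.0243%) were called, and 558 had an unadjusted p under 0.05. The precursor gene Vgf was at 211 and 216 CPM in female and 272, 261 and 310 CPM in male members. In the other GABA neurons it was at 247 and 286 CPM in the females and 228, 208 and 261 CPM in the males (-0.64 ± 0.09, adjusted p = 0.000283). Females were therefore below males among the members and mostly above them among the others. Cox6a2, low in male members, was at 13.8 and 17 CPM in female and 17.3, 16.4 and 23.6 CPM in male others (3.20 ± 0.48, adjusted p = 0.0010). Acta2, a smooth muscle actin gene, was the third (2.80 ± 0.44, adjusted p = 0.00155), but a single cell held 58.4% of its UMIs in the members and without doublets it had 0.91 (adjusted p = 1). The count of this test was 27 without female library 2, 23 without female library 1, 13 without male library 2, 11 without male library 1, 16 without doublets and 37 with no low count filter.

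**Figure D5:**
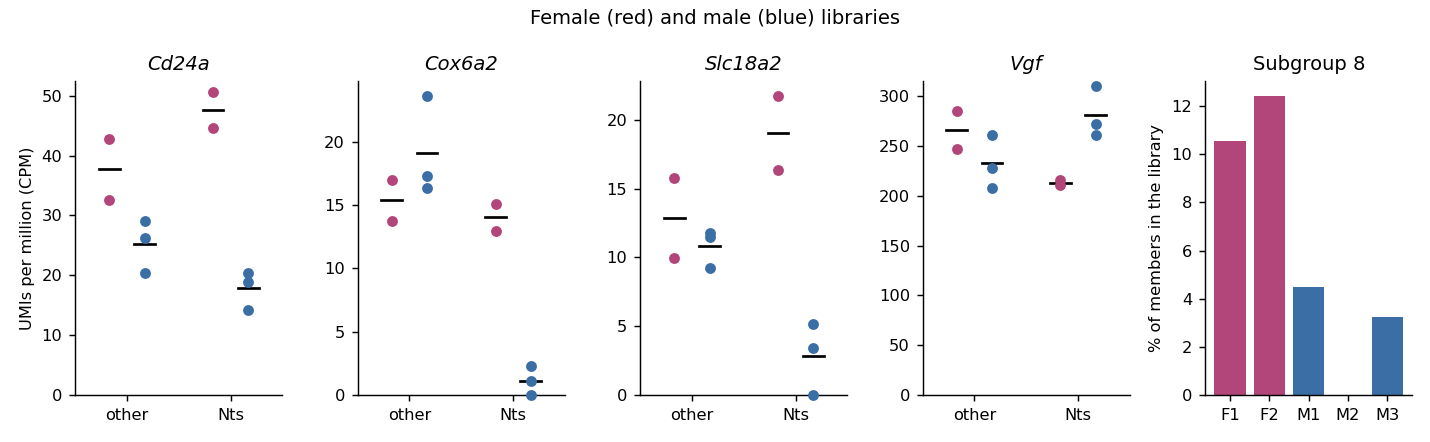
Levels of Cd24a, Cox6a2, Slc18a2 and Vgf by library in the other GABA neurons and the Nts GABA neurons (CPM; red female, blue male; bar, mean) and the share of members in subgroup 8. Among members the 2 female and 3 male libraries do not overlap for any of the 4 genes, which holds for 18.6% of all genes tested. Subgroup 8 takes 10.6% and 12.4% of female members.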

How the data were processed

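The 6 libraries were made with 10x Chromium chemistry and processed with Cell Ranger 2.0.0 on mm10, per the submitters' processing notes; the strand and the annotation used were named by no label or header. The deposited matrix holds raw UMI counts for 27998 genes and 31299 barcodes (217266089 UMIs), with the library given by the barcode suffix per the labels. Of the barcodes 475 failed the filters. The authors' cell types were not used here: cells were classed by the counts alone.

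Counts were summed per library and class for libraries with at least 10 members, filtered (edgeR filterByExpr, minimum count 10), scaled by TMM and fitted by quasi-likelihood (R 4.3.3, edgeR 4.0.16). Both classes of a library come from the same mice, so the library was a block. The tests were tried on simulated counts first. Cells were clustered with scanpy 1.11.5 (1500 variable genes, 1456 used, 20 components, 15 neighbours, Leiden resolution 0.8), and doublets were marked per library with Scrublet (rate 0.06) and kept. Scrublet marked 1002 barcodes (3.25%). Intervals and floors (3 counts) cover counting error only. Alternatives included DESeq2 1.42.0, no TMM, no filter, thinning to 3000 UMIs, other Nts thresholds and leaving out each library.

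Genes were named by a rule: up to 10 called genes per direction with the largest change, at least 20 CPM and 1 direction in every library; up to 4 genes per list with the smallest p; and all neurotensin receptor and breakdown genes. The members, the 27 gene lists and the rule were chosen with earlier results of these data known. Symbols starting with Gm or ending with Rik are counted and not named. A few genes that the rule names are not reported here. Promoter sequences are from RefSeq (GRCm38.p6).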

Additional observations from a re-analysis of the deposited data

Results flagged for a closer look

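The sex difference of 3 genes in the Nts GABA neurons differed from that in the other GABA neurons of the same libraries by the class by sex term of edgeR (2 female and 3 male libraries). For Vgf, the precursor gene of several secreted peptides, the term was -0.64 ± 0.09 (adjusted p = 0.000283). It was -0.39 for members with at least 10 Nts UMIs and -0.45 in thinned cells, both no longer called. For Cox6a2 the term was 3.20 ± 0.48 (adjusted p = 0.0010), with the low values in the male members (0 to 2.28 CPM), and DESeq2 did not call it. For Acta2 the term was 2.80 ± 0.44 (adjusted p = 0.00155). Its level was 2.52 and 20.1 CPM in female and 3.4, 3.42 and 0 CPM in male members, and 8.90, 18.3, 15.3, 37.2 and 4.79 CPM in the other GABA neurons. A single cell held 58.4% of the members' Acta2 UMIs. Without female library 2 the term was 1.11 and without male library 2 it was 2.06, and neither was called.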

How the results depend on the processing

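Of 73 genes called between the Nts GABA neurons and the other GABA neurons and tracked under every setting, the alternatives without a low count filter, without doublets, with others at 0 Nts UMIs and without the cells high in Nts and Gal lost 0 calls. Taking every library with at least 1 member repeats the same fit and tests nothing. The alternative without the cells high in both genes was chosen after seeing the data and gave 1867 calls. Without striatal-gene cells 9 of the 73 lost their call and 6 turned sign, and at 10 or more Nts UMIs 2 lost it and 1 turned. DESeq2 lost 6 of the 73, thinning 8 of 67, the 5000 to 15000 UMI window 1 of 72, no TMM scaling 1, no replicate block 22, and leaving out a library 8 of 365 gene and library pairs. The count of called genes (1838) was 984 with DESeq2, 362 with no replicate block, 693 in thinned cells, 1127 without striatal-gene cells, and 1217 to 1819 when 1 library was left out.

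Without striatal-gene cells the sign turned for Arl4d (-0.52), Egr1 (-0.30), Junb (-0.35), Ppp1r1b (-0.014), Gabra4 (-0.084), Tac1 (-0.31) and the uncalled Sort1 (0.00020). At 10 or more Nts UMIs it turned for Tac1 (-0.36) and the uncalled Qpct (0.052) and Fos (0.0019). The uncalled Qpct was 0.084 in thinned cells, Sort1 0.11 and Mme 0.042 in the 5000 to 15000 UMI window. With 1 library left out Mme ran from -0.16 to 0.048 and Fos from -0.18 to 0.045. The cause was not tested.

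Between the sexes 8 genes were called, 5 with DESeq2, 76 with no low count filter and 6 to 19 with 1 library left out (19 without female library 1, 16 without female library 2). A replicate block over shared numbers gave 218 calls with 1 residual degree of freedom. The labels give only a number for each library, and whether equal numbers mark a pairing cannot be told here. The deviations of same-numbered libraries correlated at 0.083 and 0.089, and those of libraries with crossed numbers at -0.089 and -0.083. With 2 female libraries the deviations of each mirror those of the other, so these values cannot decide it. The class by sex count of 3 was 1 with DESeq2, 37 with no low count filter, 16 without doublets, 13 in the 5000 to 15000 UMI window, 3 to 27 with 1 library left out, 0 in thinned cells (465 at an unadjusted p under 0.05 with edgeR) and 0 with no replicate block (215). Without female library 3 the share difference turned to 1.46 points and the log2 Nts difference to 0.26; leaving out each library gave -2.40 to 1.46 points and -1.18 to 0.26.

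Depth limits male library 3 most: its 31 members held 244832 UMIs, so 1 UMI there is 4.08 CPM. Each library is a pool of mice, and 5 libraries carry every gene test. Counts at or near 0 in the members, as for Vipr2 and Pvalb, fix no fold change.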

Other observations

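Of 41 potassium, calcium, sodium and HCN channel genes tested 5 were higher and 13 lower in the Nts GABA neurons (median -0.12). In cells of 5000 to 15000 UMIs 8 were higher and 8 lower (median -0.02), with DESeq2 4 and 6, without female library 2 4 and 8, and without male library 1 4 and 6. Kcnc2, a fast potassium channel gene, was at 15.1, 13.8, 21.0, 22.2 and 4.08 CPM in the members and 35.9, 40.0, 37.9, 42.5 and 37.0 CPM in the others (-1.17 ± 0.12, adjusted p = 4.86e-08). Cacna2d3, a calcium channel subunit gene, was at 57.9, 57.8, 77.1, 67.8 and 53.1 CPM against 38.7, 38.8, 47.2, 47.2 and 48.5 CPM (0.62 ± 0.08, adjusted p = 5.95e-07). Neither gene overlapped between the classes. Its relative Cacna2d2 was lower (-0.53 ± 0.07, adjusted p = 3.77e-06) and the leak channel gene Kcnk2 higher (0.39 ± 0.05, adjusted p = 5.13e-06). Of 7 fever, temperature and sleep genes tested 0 were higher and 2 lower (28.6% called, against 15.7% over all genes). The lower ones include the channel gene Trpc4, at 12.6, 11.8, 9.64, 15.4 and 8.17 CPM against 22.3, 23.8, 28.7, 26.6 and 20.1 CPM (-1.00 ± 0.13, adjusted p = 2.45e-06). Axon guidance and adhesion genes split evenly, with 10 higher and 9 lower of 41; the cadherin genes Cdh8 (0.50 ± 0.08, adjusted p = 2.27e-05) and Cdh13 (-0.52 ± 0.08, adjusted p = 9.71e-06) went opposite ways with no overlap in either. Ntng1 was higher (0.69 ± 0.11, adjusted p = 2.41e-05) and Pcdh9 lower (-0.32 ± 0.05, adjusted p = 2.63e-05).

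Imprinted genes, which are read from 1 parental copy, were lower for 8 and higher for 3 of 23 (median -0.05). The balance moved with the setting: 4 were higher and 2 lower without striatal-gene cells, 5 and 3 at 10 or more Nts UMIs, 1 and 10 with no TMM scaling, 2 and 5 without female library 2, and 3 and 4 without male library 1. Dlk1 was at 187, 219, 211, 183 and 196 CPM in the members and 283, 315, 240, 256 and 264 CPM in the others (-0.41 ± 0.05, adjusted p = 1.04e-06), a call that was lost without striatal-gene cells (-0.14, adjusted p = 0.22). Nnat was lower in 5 of 5 libraries (-0.27 ± 0.05, adjusted p = 0.000228). Of 18 peptide processing genes tested 2 were higher and 2 lower (22.2% called, against 15.7% over all genes, median -0.02). In cells of 5000 to 15000 UMIs 1 was higher and 7 were lower, and without striatal-gene cells 4 and 4. The proprotein inhibitor gene Pcsk1n rose (0.27 ± 0.03, adjusted p = 3.23e-07) and the convertase gene Pcsk2 fell (-0.24 ± 0.06, adjusted p = 0.00354). The granule genes Chga (-0.22 ± 0.05, adjusted p = 0.00213) and Cadps2 (0.26 ± 0.08, adjusted p = 0.0205) lost their calls without female library 2 (-0.14, adjusted p = 0.096, and 0.25, adjusted p = 0.13). Of 13 mitochondrially encoded genes 8 were lower (median -0.13), and within 5000 to 15000 UMIs per cell 0 of the 13 were called.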
